A study of Mus musculus with 32 samples.

Results

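The 9 genes described here are the oncogene *Myc* and 8 genes of the mesenchymal state: the transcription factors *Snai1*, *Snai2*, *Twist1*, *Zeb1* and *Zeb2* and the structural genes *Vim*, *Fn1* and *Cdh2*. They were chosen by symbol as a list of interest, and all 9 were found among the 29511 genes of the count table and in the FPKM table. RNA was sequenced from 32 tissue samples of virgin female FVB/N mice, aged 6 to 8 weeks at the start. Of these, 12 were primary tumors of 6DT1 cells collected 14 days after implantation into the mammary fat pad, 6 from *Clic4* knockout (KO) hosts and 6 from wildtype (WT) hosts, 12 were lungs taken from mice bearing such tumors on the same day, split evenly by genotype, and 8 were lungs of control mice that had no tumor, 4 of each genotype. KO hosts lack *Clic4* in every cell from birth, whereas the implanted 6DT1 cells carry the gene in both host genotypes. 6DT1 is 1 mouse mammary line, from a tumor of a mouse with a *Myc* transgene driven by the MMTV promoter. Tumor cells and stroma are both mouse, so the source cell of a transcript cannot be told apart, and counts assigned to *Myc* cannot be divided between a transgene and the gene on chromosome 15.

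During an epithelial-to-mesenchymal transition, cells give up the junctions and keratins of an epithelium and take on the intermediate filament vimentin, a matrix that holds fibronectin, and N-cadherin in place of E-cadherin. Snail, Slug (the product of *Snai2*) and the ZEB proteins bind E-box motifs and repress epithelial genes such as *Cdh1*, and Twist1 is a basic helix-loop-helix factor that acts in the same program. Fibroblasts, endothelium and smooth muscle use many of these genes constitutively, and *Zeb2* is also used by macrophages and effector T cells. Myc, as a dimer with Max, drives ribosome production and biosynthesis, and its overexpression in the mammary gland is a classic cause of mouse mammary carcinoma.

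Promoters are shown for the 3 transition factors whose values are described most closely below. *Zeb2* and *Snai1* were chosen for their values between host genotypes, where neither passed the main test, and *Twist1* for its difference between tissues. Each line gives the 250 bases before the start of the gene, 5′ to 3′ on its own strand, from RefSeq (GRCm38.p6). The E-box CAGGTG, to which Snail and ZEB factors bind, is in capitals on either strand (CACCTG on the other).

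*Zeb2*, chr2:45117443-45117692, minus strand: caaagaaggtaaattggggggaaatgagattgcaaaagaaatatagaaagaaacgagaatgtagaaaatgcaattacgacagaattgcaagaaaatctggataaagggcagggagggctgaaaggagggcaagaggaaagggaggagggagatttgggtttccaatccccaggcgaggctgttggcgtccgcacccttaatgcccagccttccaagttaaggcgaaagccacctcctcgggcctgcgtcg

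*Snai1*, chr2:167537945-167538194, plus strand: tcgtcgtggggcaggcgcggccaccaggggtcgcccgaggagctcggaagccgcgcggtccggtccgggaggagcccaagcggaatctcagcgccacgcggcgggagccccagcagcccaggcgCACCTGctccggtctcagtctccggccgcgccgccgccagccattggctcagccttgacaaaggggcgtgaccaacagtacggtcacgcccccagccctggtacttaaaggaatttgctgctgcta

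*Twist1*, chr12:33957421-33957670, plus strand: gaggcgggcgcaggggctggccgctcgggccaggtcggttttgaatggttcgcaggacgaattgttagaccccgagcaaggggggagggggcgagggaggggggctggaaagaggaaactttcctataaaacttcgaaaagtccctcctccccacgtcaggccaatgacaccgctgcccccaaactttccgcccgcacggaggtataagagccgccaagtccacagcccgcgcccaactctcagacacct

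The *Snai1* window held 1 such motif, with its first base 126 bases before the start (position -126), while those of *Zeb2* and *Twist1* held none. The same letters were found in 17.2% of the 32851 RefSeq promoter windows of this length. CACGTG, the E-box of Myc and Max, was in none of the 3 windows and in 6.02% of all windows. The other 3 *Zeb2* windows in the table, at other start sites, held neither motif.

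The label of each sample was checked with *Clic4*. KO lungs at 14 days had 65.1 ± 7.49 FPKM of it (SD, n = 6), against 181 ± 30.6 (SD, n = 6) in the WT lungs of that day, and control lungs had 61.2 ± 5.98 (KO; SD, n = 4) and 165 ± 6.61 (WT; SD, n = 4), with no overlap between genotypes. In tumors, where the implanted cells carry the gene, KO hosts gave 65.3 ± 4.04 FPKM (SD, n = 6) and WT hosts 77.5 ± 2.66 (SD, n = 6). The allele lacks the region around exon 2, so reads from the rest of the gene remain. Samples held 4446323 to 8318711 counts assigned to genes. Between 58.1 and 70.2% of a sample's FPKM lay in Rn7s1, Rn7s2 and Rn7sk, which are noncoding, so levels between samples are given as CPM, counts scaled to the library size after TMM normalization, and FPKM, which is scaled for length, is used for levels between genes. Markers of lung alveoli were near 0 in tumors, where 5 genes summed to 1.88 to 8.32 CPM and *Sftpc* was at 0 in 9 of 12 tumors. The 6 markers of tumor epithelium summed to 483 to 571 CPM in tumors of KO hosts and 529 to 690 in the WT ones, and none was called between hosts (4 positive and 2 negative log2 fold changes, median 0.50). The 2 negative ones, *Krt18* (-0.24, SE 0.08, FDR 0.164) and *Krt8* (-0.19, SE 0.09, FDR 0.299), alone had an unadjusted p under 0.05 (15.5% of all genes). The labels do not say which samples come from one animal, and p-values measure the spread between these samples. All 72 pairs of replicates within groups differed beyond counting error, with chi-squared of 2.43 to 15.0 per degree of freedom.

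*Vim* was the most abundant of the 9 genes in tumors, and *Myc* and *Fn1* followed. In tumors of WT hosts *Vim* reached 1802 ± 115 FPKM (SD, n = 6), *Myc* 488 ± 204 and *Fn1* 394 ± 118, and the ranges of *Myc* (248 to 719) and *Fn1* (319 to 630) overlapped. *Zeb2* (47.3 ± 9.29 FPKM) and *Zeb1* (26.2 ± 2.0) came next, and their ranges did not overlap with each other or with those of the genes above. *Twist1* had 4.48 ± 0.56 FPKM and *Snai1* 3.12 ± 0.54, with ranges that overlapped, and *Snai2* (1.05 ± 0.18) and *Cdh2* (0.62 ± 0.19) were lowest. In tumors of KO hosts *Snai2* (0.97 ± 0.22 FPKM) and *Cdh2* (0.96 ± 0.20) could not be ordered. The ZEB factors were thus the abundant transition factors of the tumor tissue, and the Snail factors and N-cadherin rested on 6 to 28 counts a tumor.

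The order differed in lungs. In WT lungs at 14 days *Vim* (444 ± 22.3 FPKM, SD, n = 6) and *Fn1* (104 ± 10.9) led, followed by *Zeb2* (74.9 ± 9.16) and *Zeb1* (43.8 ± 2.99). *Myc* had 2.45 ± 0.95 FPKM there, and its range (0.95 to 3.89) overlapped with those of *Snai2* (2.63 to 4.87), *Snai1* (0.99 to 2.0) and *Cdh2* (0.92 to 1.84). *Twist1* was at 0 counts in 5 of 6 of these lungs and in all 4 WT control lungs.

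**Figure D1:**
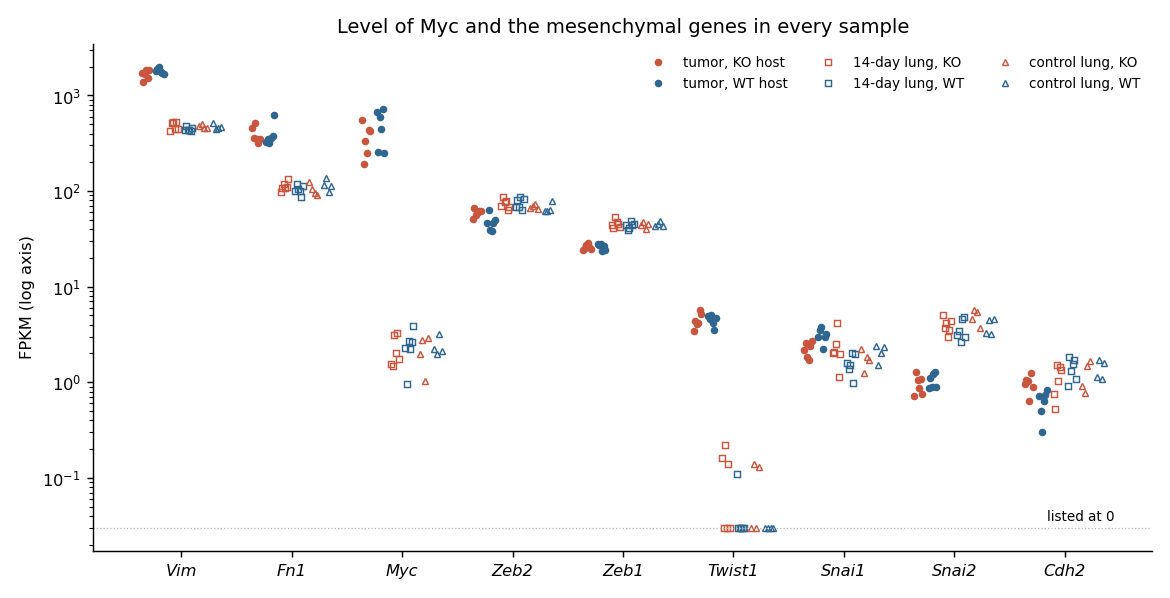
FPKM of the 9 genes (log axis) in each of the 32 samples, by tissue and genotype; values listed at 0 are drawn on the dotted line. *Myc* and *Twist1* sit far apart between tumors (filled) and lungs (open), and *Snai2* is the lowly expressed factor with more in lungs.

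The first comparison asked whether the host genotype changed these genes in the primary tumor. None of the 8 genes that could be tested passed an FDR of 0.05 with edgeR's quasi-likelihood test, against 2.51% of the 13830 genes tested. An unadjusted p under 0.05 was found for 3 of them (*Zeb2*, *Cdh2* and *Snai1*), against 15.5% of all genes, and DESeq2 called 1 (*Zeb2*), against 3.97% of all genes, and limma on log2(FPKM + 1) none. *Snai2* was removed by the filter on low counts, with 1.43 to 2.56 CPM in tumors of KO and 1.57 to 2.44 in tumors of WT hosts. The median log2 fold change of the 8 was -0.01, as it was over all genes tested.

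*Myc* (ENSMUSG00000022346, chromosome 15, 61985391 to 61990374, plus strand), the driver of this tumor line, varied more among tumors than most genes. In tumors of KO hosts it had 366 CPM at the lowest, a median of 666 and 959 at the highest, and in tumors of WT hosts 439, 943 and 1160. The WT tumors fell apart, with 2 at 439 and 454 CPM and 4 between 878 and 1160, and the KO tumors spread over the gap between them. The log2 fold change was -0.37 (SE 0.26, FDR 0.551), smaller than the spread between tumors of one host. The SD of log2(CPM + 1) was 0.51 in KO and 0.63 in WT hosts, where the median over all genes tested was 0.20 in each, and 94.3% and 96.8% of genes had a smaller one. Even the tumor with the least *Myc* was far above the highest lung, at 7.46 CPM.

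*Zeb2* (ENSMUSG00000026872, chromosome 2, 44983632 to 45117395, minus strand) came closest to a call. Tumors of KO hosts had 225 CPM at the lowest, a median of 245 and 274 at the highest, and those of WT hosts had 167, 199 and 223. The groups did not overlap, which held for 1.95% of all genes tested and for no other of the 8, although the lowest KO tumor lay only just above the highest WT tumor. On the FPKM scale they did overlap (51.5 to 67.1 against 38.1 to 63.8). The log2 fold change was 0.33 (SE 0.08, a fold of 1.26, FDR 0.0521). This stood at the threshold. DESeq2 gave an FDR of 0.00864, RLE size factors 0.0492, at least 10 counts in every sample 0.0451 and GC offsets 0.0316, while with no filter it was 0.0619 and with limma on log2(FPKM + 1) 0.222. Leaving out each tumor in turn gave an FDR between 0.0297 and 0.137, and it fell under 0.05 without KO tumor 4 (0.0487), WT tumor 2 (0.0396) or WT tumor 6 (0.0297).

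*Zeb1* (ENSMUSG00000024238, chromosome 18, 5591860 to 5775467, plus strand), the paralog of *Zeb2*, was the steadiest of the 9. It had 78.7 to 91.3 CPM in tumors of KO hosts (median 85.5) and 82.5 to 93.1 in those of WT hosts (median 89.0). The log2 fold change was -0.04 (SE 0.05, FDR 0.750), and only 2.68% (KO) and 3.58% (WT) of the genes tested had a smaller SD.

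*Snai1* (ENSMUSG00000042821, chromosome 2, 167538195 to 167542814, plus strand) had 2.42 CPM at the lowest, a median of 3.43 and 3.96 at the highest in tumors of KO hosts, and 3.42, 4.51 and 5.43 in those of WT hosts. Of the 6 WT tumors, 5 lay above every KO tumor and 1, at 3.42 CPM, lay among them. These values rest on 12 to 27 counts a tumor. The log2 fold change was -0.43 (SE 0.19, FDR 0.284). *Twist1* (ENSMUSG00000035799, chromosome 12, 33957671 to 33959829, plus strand) had 5.23 to 8.50 CPM in KO and 5.01 to 7.30 in WT hosts, and its log2 fold change was 0.07 (SE 0.16, FDR 0.896).

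Of the structural genes, *Vim* (ENSMUSG00000026728, chromosome 2, 13573927 to 13582826, plus strand) encodes vimentin, the intermediate filament by which mesenchymal cells are commonly stained. It had 1579 CPM at the lowest, a median of 1783 and 1938 at the highest in tumors of KO hosts, and 1636, 1796 and 2022 in those of WT hosts. The groups overlapped almost wholly, and the log2 fold change was -0.02 (SE 0.07, FDR 0.932). *Fn1* (ENSMUSG00000026193, chromosome 1, 71585520 to 71653200, minus strand), which encodes fibronectin of the matrix, had 1883, 2121 and 3080 CPM in KO and 1809, 2136 and 3745 in WT hosts. A WT tumor (replicate 6) stood apart at 3745 CPM, with the next at 2237, and the log2 fold change was -0.01 (SE 0.17, FDR 0.990) with it and 0.19 without it (FDR 0.474).

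*Cdh2* (ENSMUSG00000024304, chromosome 18, 16588877 to 16809246, minus strand), which encodes N-cadherin, had 2.42 CPM at the lowest, a median of 3.91 and 4.49 at the highest in tumors of KO hosts, and 1.25, 2.44 and 3.26 in those of WT hosts. Of the 6 KO tumors, 5 were above every WT tumor and 1 was not. The log2 fold change was 0.66 (SE 0.24, FDR 0.191), on 6 to 28 counts a tumor. It was 0.28 with limma on log2(FPKM + 1), a scale that understates changes of genes this low. *Cdh2* and *Snai1* thus stood on opposite sides of 0, and neither passed the test in any of the alternatives or with any tumor left out.

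**Figure D2:**
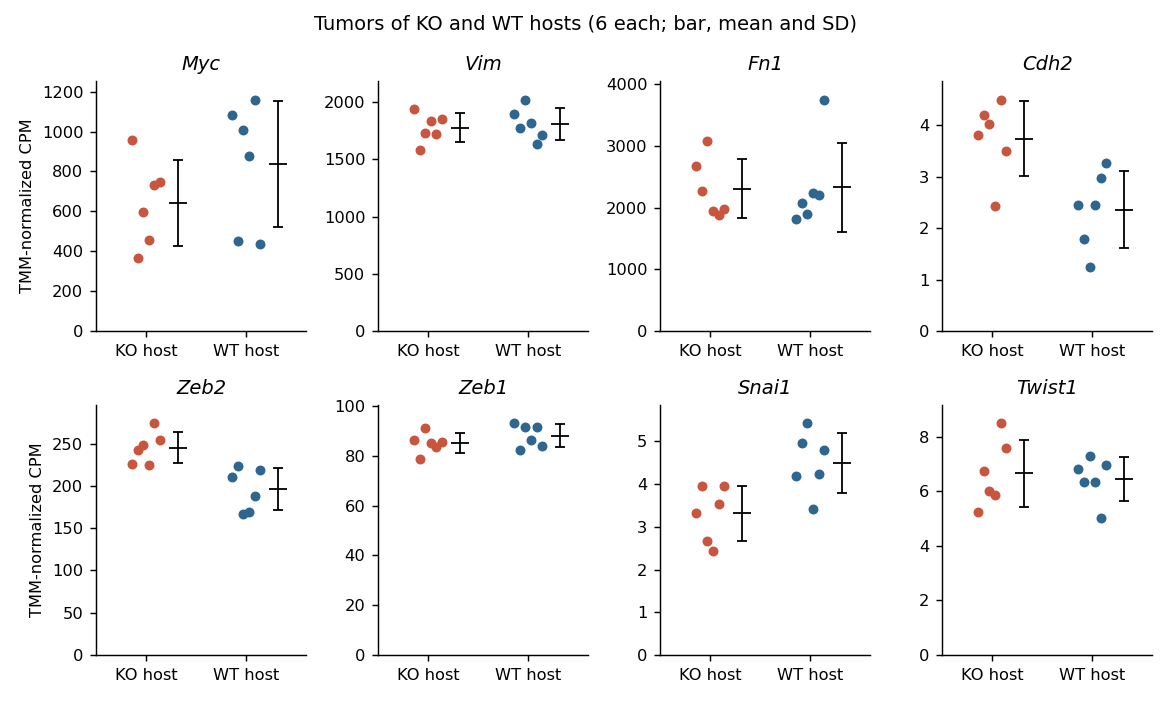
TMM-normalized CPM of 8 genes in the 6 tumors of KO hosts and the 6 tumors of WT hosts, with the mean and SD beside the points; each axis starts at 0. Only *Zeb2* has groups that do not overlap, *Myc* spreads widely in both hosts, and *Vim* and *Zeb1* are nearly flat.

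Markers of other cell types were examined in the same tumors, where 2.51% of all genes were called. All 7 T cell markers had positive log2 fold changes (median 1.13) and 2 of them, *Cd3d* and *Cd3g*, passed the test. Their summed level was 29.9 to 54.6 CPM in KO and 9.76 to 46.4 in WT hosts. Of 7 macrophage markers 6 were positive (median 0.46) and 1, *C1qb*, passed, with sums of 946 to 1339 CPM in KO and 654 to 1267 in WT hosts. No T cell or macrophage marker was at 0 in any tumor. None of 4 neutrophil markers tested passed (all positive, median 0.40), and all 6 listed summed to 16.4 to 43.5 CPM in KO and 16.8 to 26.6 in WT hosts. Of the 8 fibroblast markers none passed (7 positive, median 0.12, sums of 1801 to 3837 in KO and 2131 to 3642 CPM in WT hosts), nor did any of 5 adipocyte markers (all positive, median 0.76), of which the sums were 99.7 to 404 and 87.8 to 167 CPM. In bulk tissue, fewer cells of a type and less RNA per cell cannot be told apart, and the part of these cells in the *Zeb2* values was not tested.

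Since the *Zeb2* groups did not overlap, its relation to the markers was examined within each host, over 6 tumors. In WT hosts *Zeb2* and the mean of the T cell markers gave Pearson's r = 0.79 (exact permutation test, two-sided, p = 0.05) and Spearman's rho = 0.77 (exact p = 0.103), and macrophage markers gave r = 0.78 (exact p = 0.0472) and rho = 0.77 (exact p = 0.103). Fibroblast markers gave the highest r of these lists, at 0.89 (exact p = 0.0472), with rho = 0.71 (exact p = 0.136). Without the 2 tumors farthest from the median of *Zeb2*, r was 0.35, 0.37 and 0.39 in that order. The 3 relations are thus not shown without those tumors, though cutting the range of *Zeb2* can lower r by itself. In KO hosts r was 0.35 for T cell (exact permutation p = 0.497), 0.46 for macrophage (exact permutation p = 0.361) and 0.60 for fibroblast markers (exact permutation p = 0.211). The relation of *Zeb2* with the 24 listed Myc targets was negative in WT hosts, with r = -0.94 (exact p = 0.0222), rho = -0.89 (exact p = 0.0333) and r = -0.96 without the 2 farthest tumors, and in KO hosts r was -0.62 (exact p = 0.175). None of the KO values held without the 2 farthest tumors, where r was 0.14 for T cell markers, 0.07 for macrophage markers, -0.86 for fibroblast markers and 0.31 for Myc targets. None of the 20 relations computed within hosts passed Benjamini-Hochberg adjustment, where the smallest value was 0.25.

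The targets of Myc, which serve in nucleolar ribosome assembly, polyamine and nucleotide synthesis and chaperoning, were described next. Of the 24 tested, 23 had negative log2 fold changes in tumors of KO hosts, with a median of -0.14 against -0.01 over all genes tested. An unadjusted p under 0.05 was found for 7 of the 24 (15.5% of all genes), 6 with negative values and *Ccnd2*, the one positive target (0.35), and only *Ncl*, which encodes the nucleolar protein nucleolin, passed the test (0.492% of all genes were called lower). KO hosts gave 319 ± 36.7 CPM (SD, n = 6) and WT hosts 400.2 ± 32.6 (SD, n = 6), a log2 fold change of -0.32 (SE 0.08, FDR 0.0340). Its call was lost in 9 of the 12 fits with a tumor left out (FDR 0.00484 to 0.0984), with no filter (0.0651) and with limma on log2(FPKM + 1) (0.176).

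No relation of *Myc* with its targets was detected over the 12 tumors. Pearson's r of *Myc* with the mean of the 24 targets was 0.22 (permutation test with 100000 resamples, two-sided, p = 0.480) and Spearman's rho 0.34 (permutation p = 0.273), and r was -0.01 without the 2 tumors farthest from the median of *Myc*. Within hosts r was -0.34 in KO (exact permutation p = 0.519) and 0.55 in WT (exact permutation p = 0.333), and without the 2 farthest tumors -0.61 and -0.70, so the sign in WT hosts turned. With the markers of tumor epithelium, fibroblasts, macrophages and T cells, r lay between -0.40 and -0.10. The smallest adjusted permutation p of the 5 relations of *Myc* was 0.595 for r and 0.456 for rho.

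Of the 13 tested genes that encode Myc's partners and antagonists, none passed with edgeR (1 with GC offsets, and 0 to 1 with each tumor left out), 4 had an unadjusted p under 0.05 (15.5% of all genes) and 2 were called by DESeq2 (3.97% of all genes). These 2 oppose Myc by binding Max. *Mxd1* had a log2 fold change of 0.47 (SE 0.14, FDR 0.0902) and *Mxd4* of -0.36 (SE 0.10, FDR 0.0681). They are named here because DESeq2 called them, a choice made after their values were seen, and they stood on opposite sides of 0.

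Epithelial genes and the factors that maintain them gave 1 call among 11 tested (2.51% of all genes were called), and 3 had an unadjusted p under 0.05 (15.5% of all genes). These 3, *Ocln*, *Krt8* and *Krt18*, were all lower in tumors of KO hosts, while 6 of the 11 had positive log2 fold changes. *Ocln*, which encodes occludin of tight junctions, had 2.90 CPM at the lowest, a median of 6.06 and 10.7 at the highest in tumors of KO hosts, and 9.36, 13.2 and 22.2 in those of WT hosts. Its log2 fold change was -1.19 (SE 0.26, FDR 0.0244), and the call was lost in 4 of the 12 fits with a tumor left out and with limma on log2(FPKM + 1) (FDR 0.151). *Cdh1*, which encodes E-cadherin and was picked out here as the counterpart of *Cdh2*, ranged from 8.48 to 40.4 CPM in KO and from 6.15 to 46.6 in WT hosts (log2 fold change 0.68, SE 0.50, FDR 0.564).

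The remaining mesenchymal genes gave no call between hosts. None of 10 other transition factors and none of 14 other structural genes, such as collagens and integrins, passed with edgeR, DESeq2 or limma. In each list 1 gene had an unadjusted p under 0.05 (15.5% of all genes), *Id2* (log2 fold change 0.50, SE 0.16, FDR 0.123) and *S100a4* (-0.29, SE 0.13, FDR 0.312). The list medians were -0.05 and -0.03, beside -0.01 over all genes tested.

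The second comparison set tumors against the lungs of tumor-bearing mice, to place the level of each gene. This contrast is of tissues of different cell makeup, and 75.5% of 16115 genes were called in WT and 74.2% in KO hosts, so a call alone says little about the 9. *Twist1*, which the filter removed from the lung comparisons, and *Snai2*, which it removed from the comparison of tumors, passed it here through the tissue where they are higher, so that they had to differ, and they are described by their levels. The other 7 genes were all called in WT hosts, 4 higher and 3 lower in tumors (37.1% and 38.4% of all genes), and 5 of them in KO hosts, 3 higher and 2 lower (37% and 37.2%). With at least 10 counts in every sample 5 of the 9 could be tested. *Myc* stood out by size. It had 1.92 to 7.46 CPM in WT lungs at 14 days and 2.85 to 5.86 in KO lungs, and the log2 fold changes of tumor over lung were 7.56 (SE 0.34, a fold of 189) and 7.27 (SE 0.34, a fold of 155), with FDRs of 1.32e-16 and 3.53e-16. No lung came near any tumor.

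*Twist1* was all but confined to tumors. It had 196 counts in the 6 tumors and 1 count in the 6 lungs of WT hosts, a ratio of 225 after scaling to library size (95% counting interval 40.0 to 8941). In KO hosts 208 counts stood against 4, a ratio of 57.0 (21.9 to 211). These intervals cover counting error only. *Vim* was higher in tumors by 1.96 on the log2 scale in WT (SE 0.07) and 1.85 in KO hosts (SE 0.07), and *Fn1* by 2.05 (SE 0.15) and 1.93 (SE 0.15).

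The ZEB factors and *Snai2* were lower in tumors than in lungs. *Snai2* (ENSMUSG00000022676, chromosome 16, 14705852 to 14709385, plus strand) had 1.57 to 2.44 CPM in tumors and 4.71 to 8.70 in lungs of WT hosts. It had 1.43 to 2.56 CPM in tumors and 5.33 to 9.20 in lungs of KO hosts, with no overlap in either. *Zeb1* gave log2 fold changes of -0.65 (SE 0.06) in WT and -0.73 (SE 0.06) in KO hosts, and *Zeb2* -0.77 (SE 0.07, FDR 7.21e-10) and -0.42 (SE 0.07, FDR 1.21e-05). In WT hosts *Snai1*, the paralog of *Snai2*, was higher in tumors by 1.02 (SE 0.23, FDR 0.000304). In KO hosts it was not called (0.03, SE 0.23, FDR 0.922), nor was *Cdh2* (-0.14, SE 0.24, FDR 0.610), which in WT hosts was lower in tumors (-1.05, SE 0.25, FDR 0.000417). With offsets for GC content the median of all genes was 0.29 in WT and 0.27 in KO hosts, beside -0.01 and 0.01 without them. Relative to the median with offsets, *Zeb2* was at -0.70 and -0.37 and *Zeb1* at -0.60 and -0.70, but without subtracting the median *Zeb2* in KO hosts was no longer called (-0.09, FDR 0.219) and *Cdh2* in KO hosts had the opposite sign (0.14, FDR 0.587).

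**Figure D3:**
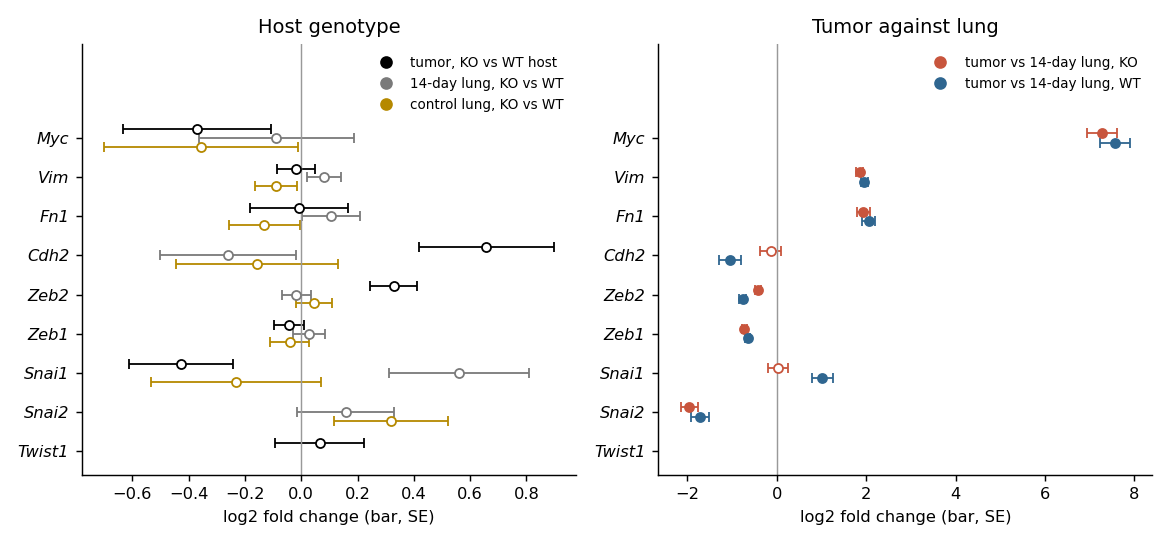
Log2 fold changes with SE for KO against WT in tumors, 14-day lungs and control lungs (left) and for tumor against 14-day lung in each host genotype (right); filled points passed an FDR of 0.05 and open points did not. *Twist1* is left out where lungs hold at most 4 counts in a group. *Snai2* passed the filter on the right through lungs, where it is higher, so its filled points there are not results. No point on the left is filled, and *Myc* lies beyond 7 on the right.

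The pathway lists split in the same contrast. Of the 24 Myc targets 23 were higher in tumors than in lungs of WT hosts and 1 lower, and the median log2 fold change was 1.89, beside -0.01 over all genes. In KO hosts the counts were the same and the median was 1.68. The exception was *Ccnd2*, which encodes cyclin D2. Of 13 epithelial genes tested, 4 (*Krt8*, *Krt18*, *Dsp* and *Cldn4*, of keratins, desmosomes and tight junctions) were higher in tumors of WT hosts and 9 were lower, among them *Cdh1* (-3.97, SE 0.36). These genes were named after their values were seen. Lung is itself rich in epithelium, with 220 to 239 CPM of *Cdh1* in WT lungs at 14 days. Of 14 other structural genes 9 were higher and 4 lower in WT hosts, and of 11 other transition factors 5 were higher and 5 lower, beside 37.1% of all genes higher and 38.4% lower.

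In lungs, the genotype and the distant tumor left no call among the 9. *Twist1* could not be tested there. For KO against WT lungs at 14 days, 0 of 8 genes passed with edgeR, DESeq2 or limma (0.0936% of 16029 genes were called by edgeR), and 1 had an unadjusted p under 0.05, against 8.34% of all genes. This was *Snai1*, with 1.56, 2.89 and 5.68 CPM in KO and 1.36, 2.20 and 2.73 in WT lungs as lowest, median and highest (log2 fold change 0.56, SE 0.25, FDR 0.557). In control lungs 0 of 8 passed with any of the 3 tools and none had an unadjusted p under 0.05, where 0.0187% of genes were called and 11.6% had such a p.

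For 14-day against control lungs, 0 of 8 passed with any of the 3 tools in WT mice, where edgeR called 0% of genes, and 0 of 8 in KO mice, where it called 0.0374%. An unadjusted p under 0.05 was found for 1 in WT mice (11.8% of all genes) and 0 in KO mice (8.64%). The smallest p was that of *Zeb2* in WT lungs, at 290 to 347 CPM at 14 days and 274 to 307 in controls (log2 fold change 0.17, SE 0.06, FDR 0.261). *Myc* lay at 1.92 to 7.46 CPM over all lungs, with log2 fold changes of 0.03 (SE 0.30) in WT and 0.30 (SE 0.32) in KO mice. These 2 comparisons share no lung with each other, but they use the same 14-day and control lungs as those above.

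The last comparison asked whether the genotype effect in tumors differed from that in lungs at 14 days. None of the 9 passed an FDR of 0.05 in edgeR's test of the interaction, nor with DESeq2 or limma, where 0.707% of 16115 genes were called by edgeR. An unadjusted p under 0.05 was found for 3 of them (10.9% of all genes), and the test uses the same tumors as the first comparison. The difference was 0.34 for *Zeb2* (SE 0.10, FDR 0.165), -0.99 for *Snai1* (SE 0.32, FDR 0.202) and 0.92 for *Cdh2* (SE 0.34, FDR 0.285). For *Zeb2* the genotype difference in lungs was near 0 (-0.02, SE 0.05), while for *Snai1* and *Cdh2* the 2 tissues gave opposite signs, none of them called. At an FDR of 0.25, 2 of the 9 and 3.67% of all genes passed.

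The genes whose level over the 12 tumors was most like that of each of the 8 were named by the highest Pearson's r of log2(CPM + 1). These are descriptions over 12 tumors that share their libraries and, for some genes, a difference between hosts. For *Myc* they were *Osbpl3* (r = 0.91), for an oxysterol-binding protein, and the circadian gene *Per1* (0.89). For *Zeb2* they were *Dse* (0.96), for an epimerase of dermatan sulfate synthesis, and *Rab8b* (0.96), a small GTPase, of which *Rab8b* was itself called between hosts (log2 fold change 0.33, SE 0.08, FDR 0.0271). For *Fn1* they were the collagen *Col6a5* (0.94) and the sphingomyelinase gene *Smpd3* (0.94), and for *Vim* *Ank1* (0.88) and *Cyb5r3* (0.86). The others were *Cars* (0.92) and *Maged2* (0.91) for *Twist1*, *Fancd2* (0.90) and *Gm28321* (0.89) for *Zeb1*, *Gm12840* (0.92) and the oncostatin M receptor gene *Osmr* (0.92) for *Cdh2*, and *Ube2h* (0.89) and *Gm37802* (0.89) for *Snai1*. No gene of the list was among the 2 most alike of another.

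**Figure D4:**
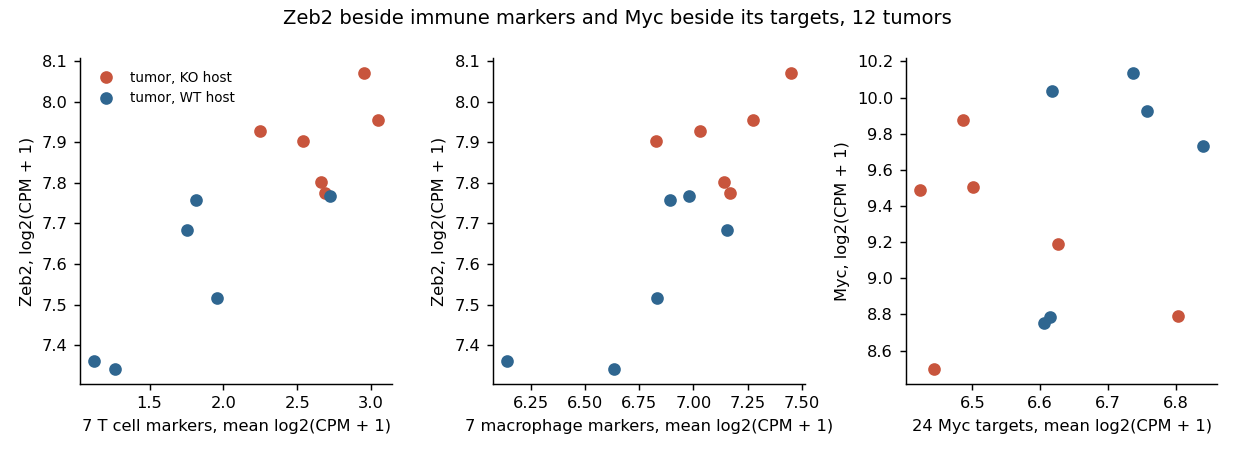
Log2(CPM + 1) of *Zeb2* against the mean of 7 T cell markers (left) and of 7 macrophage markers (middle), and of *Myc* against the mean of 24 Myc targets (right), with 1 point for each of the 6 tumors of KO and the 6 of WT hosts. *Zeb2* is lowest in the 2 WT tumors with the lowest means of T cell, macrophage and, not drawn, fibroblast markers. *Myc* shows no trend with its targets.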

How the data were processed

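The authors aligned paired-end reads of stranded mRNA libraries to GRCm38 (mm10) with STAR and quantified genes with RSEM. They deposited RSEM's expected counts per gene as whole numbers, without normalization, and the FPKM values that RSEM scales for length and depth. No other values were used. Gene positions came from GENCODE M21 and promoters from the RefSeq table.

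The 9 genes and all lists were chosen with earlier results of these data known. The study's methods name DESeq2. Here edgeR 4.0.16 (R 4.3.3; quasi-likelihood test, TMM, filterByExpr) was run in one fit each of the 12 tumors, the 20 lungs and the 24 samples of day 14. A call is an FDR of 0.05 (Benjamini-Hochberg over all genes tested). The SE is the log2 fold change divided by the square root of F. Named are the 9 genes, *Clic4*, list genes called between tumors, at most 3 per direction and list, and the 2 genes most alike to each of the 8 that passed the filter in tumors. Other genes named were chosen after their values were seen. Mean levels of lists are means of log2(CPM + 1). Of 25 Myc targets listed, 24 were found. Alternatives were DESeq2 1.42.0, edgeR with RLE size factors, without a filter and with a minimum of 10 counts per sample, limma 3.58.1 on log2(FPKM + 1) and log2(FPKM + 0.1) for genes of at least 0.5 FPKM, blocking on replicate number, fitting the 2 groups of a comparison alone, other limits, each sample left out, and, added after seeing the data, GC offsets (loess, span 0.5), with and without the block. On simulated data with 200 genes changed by 2-fold, edgeR recovered 90% in the tumor comparison. The changed genes were drawn from those averaging more than 20 counts a sample. The rate therefore does not cover genes of few counts, such as *Snai1* and *Cdh2*, or smaller changes. Nothing was tested on proteins, and strand-specific or transgene reads could not be examined.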

Additional observations from a re-analysis of the deposited data

Results flagged for a closer look

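A tumor of a WT host (replicate 6) had an *Fn1* level of 3745 CPM, far from the other 5 of its group, of which the highest was 2237. A 14-day WT lung had a *Twist1* level of 0.162 CPM, a single count, where the other 5 were at 0. These were the 2 samples found far from the rest among 53 sets of a gene and a group of 4 to 6 samples, where chance gives about 1 in 20. That rate does not apply to *Twist1*, since a single count among values of 0 always stands apart.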

How the results depend on the processing

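Of the 9 genes, the number called between tumors was 0, and it was 1 (*Zeb2*) with DESeq2, RLE size factors, at least 10 counts in every sample, GC offsets and GC offsets with the replicate block, and 0 to 1 with each tumor left out. For tumor against 14-day lung, WT hosts, 9 were called, *Twist1* and *Snai2* included, which the filter had fixed, but 5 with at least 10 counts in every sample, where 5 could be tested. At an FDR of 0.25, 2 passed the interaction. With each sample left out, the lung comparisons and the interaction stayed at 0. Values near 0 turned sign. Between tumors *Twist1* was 0.00 with limma on log2(FPKM + 1) (-0.0012), -0.0030 with a pseudocount of 0.1 and -0.014 with GC offsets and the replicate block, and -0.021 to 0.12 with each tumor left out. *Fn1* was 9.5e-05 with at least 10 counts in every sample, 0.010 and 0.011 with the limma settings and 0.018 with the replicate block, and -0.10 to 0.19 with each tumor left out, and *Vim* ranged from -0.048 to 0.012. For tumor against 14-day lung in KO hosts, *Snai1* was -0.029 with DESeq2, -0.028 with RLE size factors and -0.014 with only the compared groups (-0.11 to 0.25 with each sample left out), and *Cdh2* was 0.14 with GC offsets, with or without the block. The causes were not tested. Among Myc targets 1 was called, 0 with no filter or limma and 2 with GC offsets and the block, and 0 to 4 with each tumor left out. Of all 417 values under the alternatives other than left-out samples, those above included, 378 kept their direction and side of the threshold. Same-numbered samples of different groups correlated at -0.35 to 0.24, and in no 2 groups was every pair over 0.1, so the numbers were not taken as pairs. Tumors and 14-day lungs of KO hosts came closest, with 0.046 to 0.18, 3 of 6 pairs over 0.1 and 5 of 6 best with their own number, a hint from the data and not from the labels. Same-numbered 14-day lungs and tumors also stand side by side in the deposited order. A pairing is therefore possible, and the main tests do not allow for it. The replicate block gave *Zeb2* an FDR of 0.0727, 257 calls between tumors in place of 347, and changed no call among the 9. Over all genes it gave 13 calls in place of 0 for 14-day against control lungs in WT mice and 24 in place of 6 in KO mice, and between tumors DESeq2 called 549 and limma 177 on log2(FPKM + 1). At these depths, genes of a few counts a library, *Snai1*, *Snai2*, *Cdh2* and lung *Twist1*, are measured least precisely.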
